A study of Gallus gallus with 12 samples.

Results

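An interval of chicken chromosome 25, from 2.15 to 2.26 Mb of the GRCg6a assembly and 106746 bases from end to end, holds 32 of the 24353 loci in the deposited expression table, and every locus that lay wholly within it was taken, whatever its name. The table names 1 of the 32 as a keratin, F-KER (ENSGALG00000028706), and gives the other 31 no symbol. They are therefore called by their Ensembl IDs, and no role is given to any of them. Feather keratins, a group within the beta-keratins, are small proteins of birds that assemble into the filaments of barbs and shafts. The cells of a growing feather make them in bulk shortly before they harden and die. In chicken the genes lie in tandem clusters of near-identical copies on several chromosomes. Alpha-keratins, which birds share with mammals, form a different kind of filament in the same epithelium.

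The libraries came from newly emerged nape feathers of F3 hens from a Huiyang Bearded by White Leghorn cross, with white or yellow plumage, at 7 and 11 weeks of age. The design asked how follicles of both colours differ at each age, and each colour and age had 3 libraries: 7W1, 7W2 and 7W3, 7Y1, 7Y3 and 7Y4, 1W1, 1W3 and 1W4, and 1Y1, 1Y3 and 1Y4, where 7 or 1 stands for 7 or 11 weeks and W or Y for the colour. All birds were typed by the study as CC at the recessive white locus and s/W at Silver, and as II or Ii at Dominant white. Ii was found in 7W2 and in the yellow birds numbered 1 and 3 at both ages, and the rest were II, so that at 11 weeks no white bird carried i and a part of this allele in a colour difference cannot be told apart. The lowest 2 mm of each feather was taken, so that epithelium and pulp were pooled and fewer cells of a type cannot be told apart from less RNA per cell. The sources used here do not say whether libraries with the same number came from 1 bird plucked at both ages: the methods describe birds plucked repeatedly, while each library is counted as an individual elsewhere in the study.

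The values are FPKM, fragments per length of a gene and per total of mapped fragments. Their sum over the whole table was 700237 to 830214 per library at 7 weeks and 640571 to 711831 at 11 weeks. No read count was in the table used, so the depth behind a value is unknown and precision is given by the spread of libraries. A value of exactly 0 may be a failed estimate and not an absent transcript, and such values are written as listed at 0. The loci may include near-identical copies, though their sequences were not compared. Of the 32, 16 overlap another of the 32, and the strand setting of the counting is not given in the sources used here. Reads may therefore have been split or moved between neighbouring loci.

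The 32 loci formed 4 stretches by position and overlap. The first held 9 loci (up to base 2183962), all of which overlapped the long locus ENSGALG00000028843, whose start and end lie 33900 bases apart, and F-KER was among them. Next came 4 loci that overlapped no other (chr25:2189326-2206601). The central stretch of 12 loci (chr25:2213790-2235363) carried between 85.7% and 99.9% of the FPKM of all 32 in a library. The last 7 loci, from base 2236544 on, all overlapped ENSGALG00000049037, whose ends lie 19981 bases apart.

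Levels differed by stretch. The mean over 12 libraries was 1285 to 18342 FPKM for loci of the central stretch, against 5.82 to 323 in the first, 5.44 to 395 in the second and 4.49 to 683 in the last. Of the 10 loci of highest mean FPKM in the whole table, 5 were in the interval, as were 10 of the highest 25 and 12 of the highest 100, and those 12 were the central stretch. Of the central loci 5 had ends 366 bases apart, each with a longer locus on either side, and the 7 others had ends 586 to 829 bases apart. Only 7 loci of the whole table had ends 366 bases apart, and all were in the interval, the other 2 in the last stretch. Successive starts of these 7 were 3937 to 5908 bases apart.

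**Figure D1:**
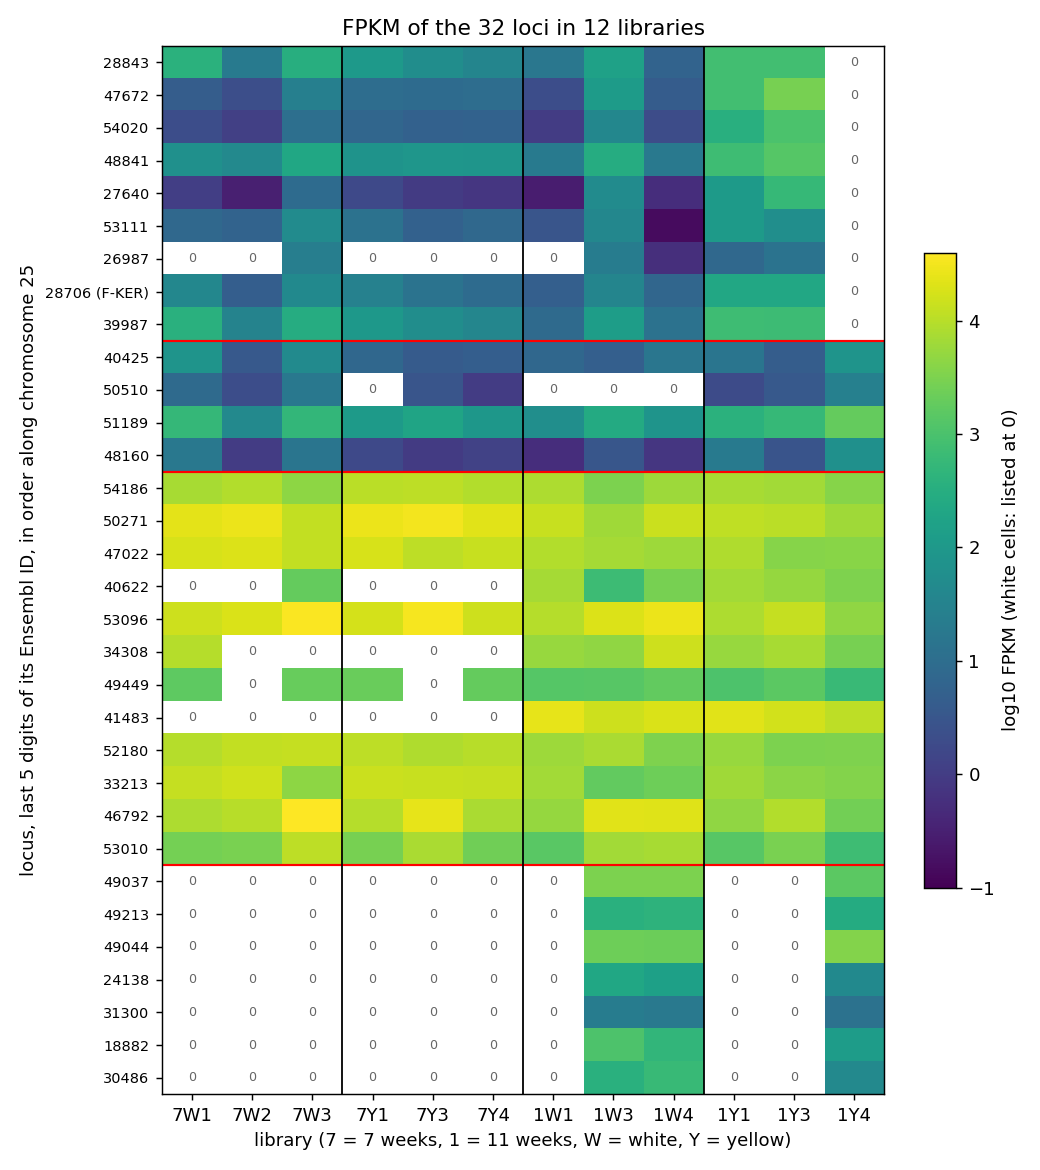
FPKM of each of the 32 loci (rows, in order along the chromosome) in each of the 12 libraries (columns), on a log10 colour scale, with white cells marked 0 for values listed at 0; red lines part the 4 stretches. The central 12 loci have means of 1285 to 18342 FPKM, the last 7 are listed at 0 in 9 libraries, and the first 9 are listed at 0 together in 1Y4.

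Values listed at 0 made up 100 of the 384 values in the interval, 66 of 192 at 7 weeks and 34 of 192 at 11 weeks. Over the whole table, 31.6% to 36.3% of loci were listed at 0 in a library, so the 100 of 384 were no excess. In the interval 11 loci were above 0 in all 12 libraries. Zeros were more frequent there only when set against loci that reached like levels. Among loci that reached 1000 FPKM in some library, 10 of 19 in the interval were listed at 0 in another library, against 3 of 137 elsewhere (2.19%). Among those that reached 10 FPKM the counts were 21 of 32 and 83 of 6674 (1.24%). None of 9 housekeeping genes was listed at 0 in any library, and their lowest value was 9.44 FPKM.

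The zeros came in blocks in both overlapping stretches. All 7 loci of the last stretch were listed at 0 in the same 9 libraries and were above 0 in 1W3, 1W4 and 1Y4. There, ENSGALG00000049037 stood at 3054, 3131 and 1553 FPKM, ENSGALG00000049044 at 2367, 2148 and 3677, and ENSGALG00000018882 at 1111, 486 and 126. The other 4, ENSGALG00000049213, ENSGALG00000024138, ENSGALG00000031300 and ENSGALG00000030486, ranged from 12.6 to 589 FPKM in these libraries. Across the table, 72 groups of at least 3 overlapping loci had members that reached 10 FPKM, and in 3 of the 72 all such members were listed at 0 together in some library and not in another. The first and last stretches were 2 of these 3. The third lay on chromosome 27 and included FK21 and FKCOSL, which the table names as feather keratins.

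In the first stretch all 9 loci were listed at 0 in 1Y4, while the other yellow libraries at 11 weeks, 1Y1 and 1Y3, held the highest values for 8 of the 9. F-KER had 39.1, 4.62 and 45.3 FPKM in white and 28.7, 13.3 and 9.11 in yellow follicles at 7 weeks. At 11 weeks it had 4.98, 35.6 and 6.89 in white follicles, and 226, 230 and 0 in yellow ones. The summed FPKM of the stretch was 3884 in 1Y1, 7579 in 1Y3 and 0 in 1Y4, and 52.1 to 1002 in the other 9 libraries. ENSGALG00000047672 reached the highest single value, 2889 FPKM in 1Y3, and stood at 797 in 1Y1 and at no more than 117 elsewhere. ENSGALG00000054020 followed, with 1027 FPKM in 1Y3, 349 in 1Y1 and no more than 38.3 elsewhere. ENSGALG00000026987 was listed at 0 in 7 libraries and reached 25.4 in 7W3.

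The second stretch was highest in the library where the first was listed at 0. Its sum was 2071 FPKM in 1Y4, 416 in 1Y1 and 589 in 1Y3. The 3 white libraries at 11 weeks gave 66.8, 267 and 96.4. At 7 weeks it was 650, 50.0 and 599 in white and 121, 192 and 97.2 in yellow follicles. ENSGALG00000040425 varied from 3.63 FPKM in 7W2 to 80.4 in 7W1 and 80.2 in 1Y4, with no separation of colours or ages.

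In the central stretch, 3 loci were listed at 0 in most libraries at 7 weeks and in none at 11 weeks. ENSGALG00000041483 was listed at 0 in all 6 libraries at 7 weeks and had 25114, 14964 and 19273 FPKM in white and 21882, 16473 and 10760 in yellow follicles at 11 weeks. It ranked 9 in the table by mean FPKM, with 6 of its 12 values at 0. ENSGALG00000034308 was listed at 0 in 5 of 6 libraries at 7 weeks, with 9680 in 7W1, and had 5408, 4599 and 14821 in white and 5352, 7257 and 2838 in yellow follicles at 11 weeks. ENSGALG00000040622 was likewise listed at 0 in 5 of 6 at 7 weeks, with 1861 in 7W3, and at 11 weeks had 7011, 681 and 2786 in white and 6515, 5076 and 3265 in yellow follicles. Their adjusted p was 7.4e-14, 4.5e-04 and 2.1e-04 in limma with Benjamini-Hochberg adjustment over all 14553 loci tested. These p-values take the zeros as measured, and ENSGALG00000041483 met the minimum mean for testing only through its values at 11 weeks, so they are not read as a rise. No fold is given against values listed at 0. The fourth central locus with zeros, ENSGALG00000049449, was listed at 0 in 7W2 and 7Y3 and otherwise had 621 to 2132 FPKM (adjusted p = 0.22 in limma).

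The 8 other central loci were above 0 in every library, and 4 of them fell with age. Whether reads moved between these 4 and neighbouring loci was not tested. The mean share of the whole central stretch in the FPKM of a library was 15.34% at 7 weeks and 15.46% at 11 weeks in white follicles. In yellow ones it was 15.23% and 10.96%. ENSGALG00000033213 had 12651, 15878 and 4378 FPKM in white and 14234, 13310 and 12568 in yellow follicles at 7 weeks, and 6819, 1788 and 2313 in white and 6264, 4145 and 3674 in yellow ones at 11 weeks. Its ages overlapped, since 7W3 lay below 1W1 and 1Y1. The average log2 change over both colours was -1.60 (SE 0.37, adjusted p = 0.0025 in limma).

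For ENSGALG00000047022 the values were 18228, 20135 and 12157 in white and 18509, 10816 and 13762 in yellow follicles at 7 weeks, and 9236, 7071 and 6101 in white and 8474, 3752 and 3927 in yellow ones at 11 weeks. Every library at 11 weeks lay below every library at 7 weeks (log2 change -1.32, SE 0.24, adjusted p = 4.0e-04 in limma). ENSGALG00000052180 also had no overlap of ages, with 9332, 12014 and 12916 in white and 11210, 8716 and 9908 in yellow follicles at 7 weeks, and 6045, 7734 and 3217 in white and 5445, 3176 and 3349 in yellow ones at 11 weeks. Its log2 change was -1.22 (SE 0.22, adjusted p = 3.9e-04 in limma).

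ENSGALG00000050271, which ranked 5 in the table by mean FPKM, had 22887, 26988 and 12022 in white and 27612, 31092 and 22447 in yellow follicles at 7 weeks. At 11 weeks it had 13575, 6430 and 14164 in white and 11769, 10691 and 6368 in yellow ones, so that the white groups overlapped and the yellow ones did not. The log2 change was -1.20 (SE 0.27, adjusted p = 0.0020 in limma). The other 4 central loci above 0 in every library had average log2 changes of -0.58 to -0.86 and did not pass. Closest was ENSGALG00000053096, which ranked 2 by mean, at -0.86 (SE 0.36, adjusted p = 0.0504).

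**Figure D2:**
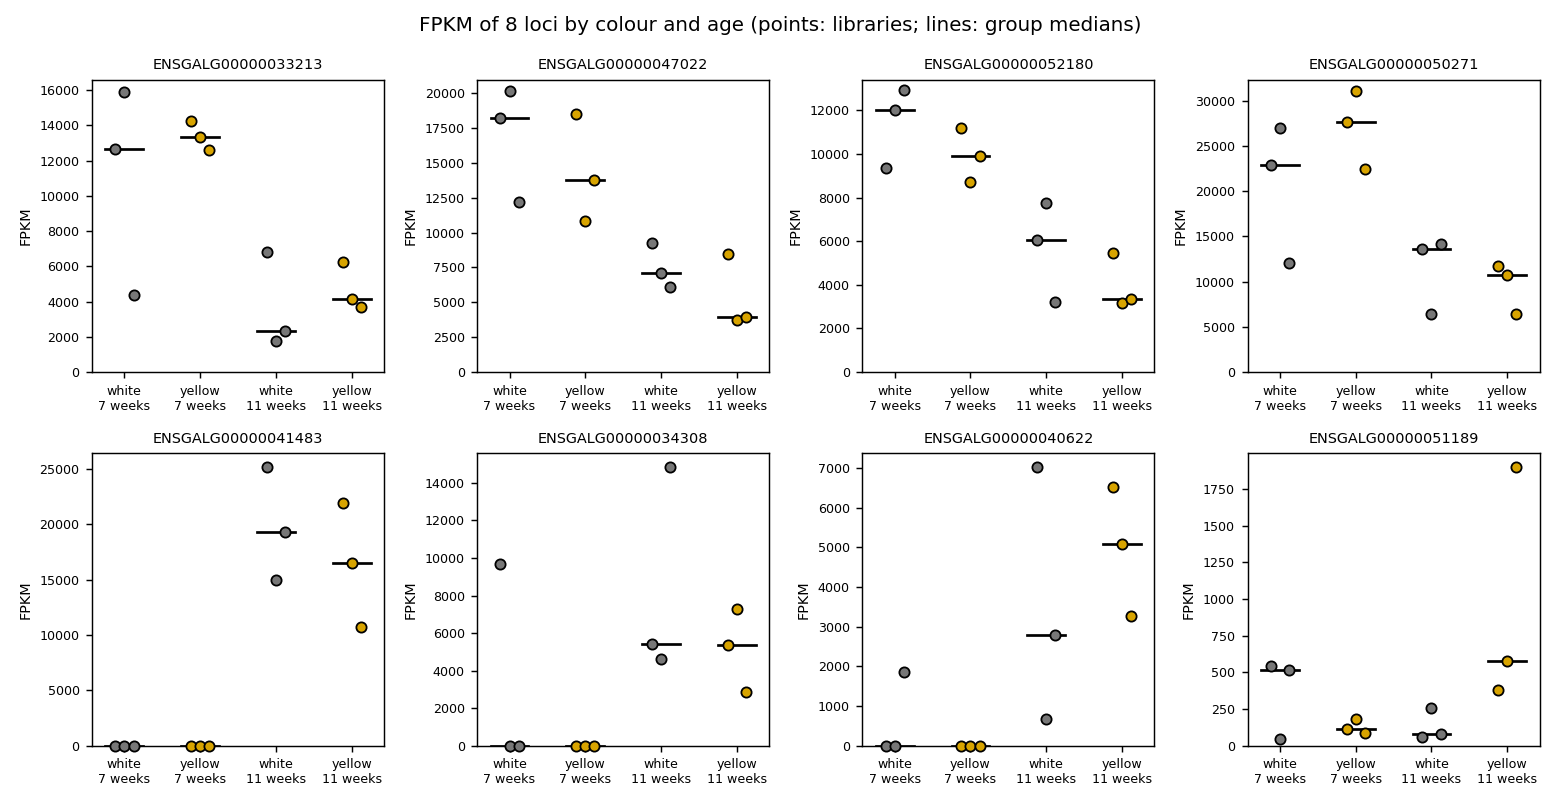
FPKM (linear axes from 0) of 8 loci in each library, by colour and age, with points for libraries and lines for group medians. The upper row holds the 4 loci that fell with age. The lower row holds 3 central loci listed at 0 in most libraries at 7 weeks and ENSGALG00000051189 of the second stretch. In ENSGALG00000047022 and ENSGALG00000052180 every point at 11 weeks lies below every point at 7 weeks.

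Over the interval, 14 of 32 loci passed both thresholds between ages (adjusted p no larger than 0.05, log2 change of 1 or more in size), with 10 higher and 4 lower at 11 weeks. Over all loci tested 28.0% passed, 3640 of 14553 higher and 2.96% lower. The ages did not overlap for 3 of the 32, ENSGALG00000041483, ENSGALG00000047022 and ENSGALG00000052180, against 47.9% of all loci. All 10 higher ones were listed at 0 in libraries at 7 weeks, so their calls rest on zeros that may be failed estimates. They were the 3 central loci above and the 7 of the last stretch, which were at 0 in every library at 7 weeks and met the minimum mean through 3 libraries at 11 weeks (adjusted p of 0.038 to 0.046). These 7 calls were lost when limma's robust option was used, when its trend was left out and when the filter on low FPKM was dropped, each of which left 7 loci (3 higher, 4 lower). Leaving out 1W3 likewise left 7 and 1W4 8, and leaving out any of the 6 libraries at 7 weeks left 7 or 8. With libraries of one colour and number paired across ages, fewer loci passed as higher and more as lower, with counts in the closing section. The 11 loci never listed at 0, a choice that leaves out those at 0 at 7 weeks, had a median log2 change of -0.75 and included the 4 that fell. The median over all loci tested was 0.44, and it became 0.03 when the libraries were rescaled by median of ratios, and 16 members then passed (10 higher, 6 lower); under quantile normalization 8 did (6 higher, 2 lower).

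In white follicles alone 4 of 32 loci passed between ages, against 31.1% of all loci (26.6% higher, 4.49% lower). ENSGALG00000041483, at 0 in every library at 7 weeks, was the higher one. ENSGALG00000047022 (log2 change -1.16) and ENSGALG00000052180 (-1.09) fell, the latter missing a threshold in 6 of 16 alternatives (adjusted p up to 0.074). The fourth, ENSGALG00000050510, had 8.43, 2.15 and 17.8 FPKM at 7 weeks and was listed at 0 in all 3 white libraries at 11 weeks (adjusted p = 3.7e-04 in limma). It met the minimum mean only through its values at 7 weeks. Its p-value takes the zeros as measured, so it is not read as a fall. Without 1W1 12 loci passed (8 higher, 4 lower), against 4393 of 14343 over all loci. Without 7W2 or 1W3 7 did (1 higher, 6 lower in each fit), against 4773 of 14516 and 4552 of 14361 over all. In these fits 0 of the higher loci were among those never listed at 0. The higher calls thus rest on zeros that may be failed estimates, and are not read as rises. Of the lower ones, 3 without 1W1, 4 without 7W2 and 2 without 1W3 were never listed at 0. Groups did not overlap for 4 of the 32, against 70.6% of all loci, and 2 of these 4 were never listed at 0.

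In yellow follicles alone 10 of 32 passed, 5 in each direction, against 22.3% of all loci (20.2% higher, 2.08% lower). The higher ones were the 3 central loci at 0 in all yellow libraries at 7 weeks and 2 loci of the second stretch. Those 3 met the minimum mean of this fit only through their values at 11 weeks, and are not read as rises. ENSGALG00000051189 had 112, 184 and 90.2 FPKM at 7 weeks and 380, 578 and 1899 at 11 weeks (log2 change 2.60, SE 0.57, adjusted p = 0.012 in limma), and ENSGALG00000048160 had 1.70, 0.944 and 1.28, then 19.4, 2.86 and 65.0 (log2 change 3.50, SE 0.99, adjusted p = 0.027). The second of these missed the threshold in 5 of 16 alternatives (adjusted p up to 0.11). Those that fell were ENSGALG00000033213, ENSGALG00000047022, ENSGALG00000050271, ENSGALG00000052180 and ENSGALG00000053096, with log2 changes of -1.55 to -1.35. ENSGALG00000053096 lost its call in 9 of the 16 alternatives (adjusted p up to 0.15), among them leaving out 7Y1, 7Y3, 1Y1 or 1Y4. Groups did not overlap for 11 of 32, against 59.0% of all loci. Of the loci never listed at 0 they did not overlap for 8 (2 higher, 6 lower). Without 1Y4, the library with the first stretch at 0, 25 loci were tested and 18 passed (14 higher, 4 lower). Over all loci 2952 of 14409 passed in that fit. The last stretch was not tested there, being at 0 in the other yellow libraries. Whether the age change differed between colours was tested for each locus, and 0 of 32 passed (0.00% of all loci, smallest adjusted p = 0.48 in limma, 3 at an unadjusted p under 0.05).

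Summed over the 32 loci, the interval held 8.31% to 18.8% of the FPKM of a library. White follicles at 7 weeks had 109027, 116825 and 139122 FPKM (mean 121658 ± 15619, SD, n = 3), and yellow ones 113980, 141616 and 94652 (116749 ± 23604). At 11 weeks the sums were 98833, 105335 and 133981 in white follicles (112716 ± 18700) and 92600, 91343 and 54553 in yellow ones (79498 ± 21613). Sums over a set chosen for this description were not tested. Both ages overlapped in white follicles. In yellow follicles every sum at 11 weeks was below every sum at 7 weeks, the nearest being 92600 and 94652. As shares of the FPKM of a library the yellow ages overlapped, with 14.26% in 1Y3 and 13.52% in 7Y4. The shares in 1Y1 (13.39%) and 1Y4 (8.31%) were below every yellow share at 7 weeks. The mean share was 15.48% at 7 weeks and 16.23% at 11 weeks in white follicles, and 15.28% and 11.99% in yellow ones. The direction in white follicles thus depended on the scale.

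The sum was also split by whether a locus was ever listed at 0. Since 66 of the 100 zeros were at 7 weeks, this split partly fixes the direction of each part with age, and the parts are given as a description. The 11 loci never listed at 0 summed to 92564 to 141380 FPKM at 7 weeks and 31300 to 88316 at 11 weeks, with no overlap. The 21 loci listed at 0 in some library summed to 113 to 12132 at 7 weeks and 23253 to 45665 at 11 weeks. The log2 ratio of the mean sums, 11 against 7 weeks, was -0.11 in white and -0.55 in yellow follicles for all 32 loci, and -0.64 and -1.32 for the 11. It was -0.61 and -0.97 for all 32 after rescaling by median of ratios, and -0.08 and -0.09 after quantile normalization.

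**Figure D3:**
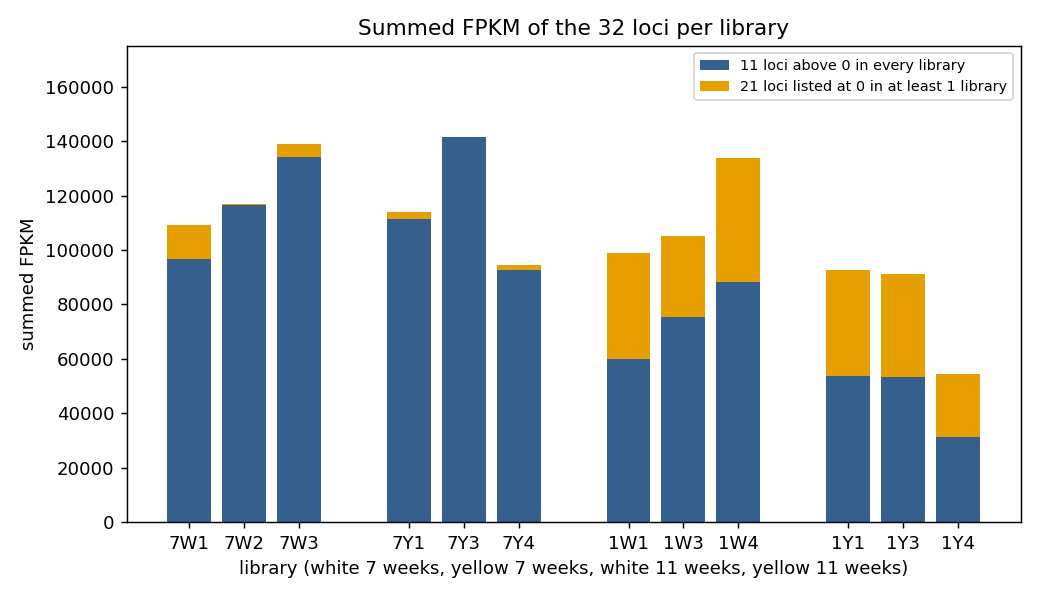
Summed FPKM per library (bars, linear axis from 0) in the 4 groups, split into the 11 loci above 0 in every library (blue) and the 21 loci listed at 0 in at least 1 library (orange). The blue part runs from 92564 to 141380 at 7 weeks and from 31300 to 88316 at 11 weeks, and 1Y4 has the lowest bar, 54553.

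Between colours no locus of the interval passed in the fits of all libraries without a block on the replicate number. With that block 4 passed at 7 weeks, all lower in yellow, against 18 of 13895 over all loci. At this age 7W2 and 7Y4 have no partner of the other colour. These calls thus rest on 7W1 with 7Y1 and 7W3 with 7Y3. The counts that follow are without the block. At 7 weeks 24 loci reached the minimum mean for testing and 0 passed (0.0288% of all loci; 1 at an unadjusted p under 0.05). Without 7W2 2 passed, both lower in yellow: ENSGALG00000040425 (log2 difference -3.56, adjusted p = 0.022 in limma) and ENSGALG00000048160 (-3.57, adjusted p = 0.012). Over all loci 12 of 13902 passed in that fit, 9 of them lower in yellow. The groups separated for 0 of the 24, against 20.1% of all loci. At 11 weeks 0 of 32 passed (0.00% of all loci; 3 at an unadjusted p under 0.05). Averaged over ages 0 of 32 passed (0.206%; 0 at an unadjusted p under 0.05), with a median log2 difference, yellow minus white, of -0.36 in the 32 loci and 0.07 over all. Of the loci never listed at 0, the widest average differences were -0.91 in ENSGALG00000046792 (SE 0.53, adjusted p = 0.38 in limma), -0.90 in ENSGALG00000053010 (SE 0.55, adjusted p = 0.39) and 0.95 in ENSGALG00000051189 (SE 0.67, adjusted p = 0.45). Among loci listed at 0 in some library the smallest adjusted p was 0.44, in ENSGALG00000050510.

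At 11 weeks the groups separated for 2 of 32 loci, both of the second stretch and with the yellow values above, against 13.7% of all loci. Only 1 of these 2 was never listed at 0. ENSGALG00000051189 had 58.8, 259 and 80.1 FPKM in white and 380, 578 and 1899 in yellow follicles (log2 difference 2.80, SE 0.74, adjusted p = 0.59 in limma). ENSGALG00000050510, at 0 in every white library of this age, had 1.92, 3.72 and 27.3 in yellow follicles (adjusted p = 0.30 in limma). It met the minimum mean only through the yellow values, and its zeros may be failed estimates, so it is not read as higher in yellow. At 7 weeks the same locus had 8.43, 2.15 and 17.8 in white and 0, 2.94 and 0.985 in yellow follicles, with the groups overlapping.

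The sum at 11 weeks was below every white library in each yellow library, by a log2 ratio of means of -0.50, or -0.29 without 1Y4. As shares of the FPKM of a library the colours overlapped at this age, with 14.26% in 1Y3 and 13.99% in 1W1. The shares in 1Y1 (13.39%) and 1Y4 (8.31%) were below every white one. The library 1Y4 also stood apart in lists of other genes. Its 18 alpha-keratin and cornification genes summed to 3382 FPKM, against 5804 to 6605 in the 5 others at 11 weeks, and its 6 epidermal markers to 1197, against 1333 to 1600. CSTA held 1648 FPKM of the first of these sums, against 3216 to 4040 in the 5 others. Of the epidermal markers, KRT5 had 577 FPKM in 1Y4, against 714 to 949. TP63, CDH1 and EPCAM were also lowest there at 11 weeks, while KRT14 (120) and KRT15 (43.6) lay within the range of the others. The 23 epithelial regulators summed to 963 in 1Y4, above the 859 to 932 of the others. The 7 markers of dermis and pulp summed to 2936 (1250 to 2255 in the others), 4 endothelial markers to 30.6 (16.2 to 22.7) and 5 erythrocyte markers to 151 (31.7 to 56.4), with 2 of the 5 at 0 in every library. Their part in the low sum was not tested.

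Within a library, ratios between central loci set W3, Y3 and W4 apart from the other labels (colour and number), and were alike at both ages for W3 and for Y3. ENSGALG00000046792 had 8117, 9954 and 39707 FPKM in white and 9336, 24158 and 7573 in yellow follicles at 7 weeks, and 5190, 21769 and 21703 in white and 4629, 8822 and 2614 in yellow ones at 11 weeks. Divided by ENSGALG00000052180, which has the same length, it gave 3.07 and 2.81 in 7W3 and 1W3, 2.77 and 2.78 in 7Y3 and 1Y3, and 6.75 in 1W4. The 7 other libraries lay between 0.76 and 0.87.

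Another pair, ENSGALG00000053010 over ENSGALG00000047022, of nearly equal length, gave 0.93 and 0.94 in 7W3 and 1W3, 0.71 and 0.80 in 7Y3 and 1Y3, and 1.22 in 1W4, against 0.15 to 0.18 in the 7 other libraries. ENSGALG00000053096 had 14968, 19464 and 36822 FPKM in white and 17153, 34224 and 14715 in yellow follicles at 7 weeks, and 9491, 20463 and 27275 in white and 8124, 12641 and 4761 in yellow ones at 11 weeks. Over ENSGALG00000050271 it gave 3.06 and 3.18 in W3, 1.10 and 1.18 in Y3 and 1.93 in 1W4, against 0.62 to 0.75. The same 5 libraries were thus high in all 3 ratios, in both colours and at both ages, while W2 and W4 were sequenced at 1 age each. The pairs were picked after the values had been seen.

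**Figure D4:**
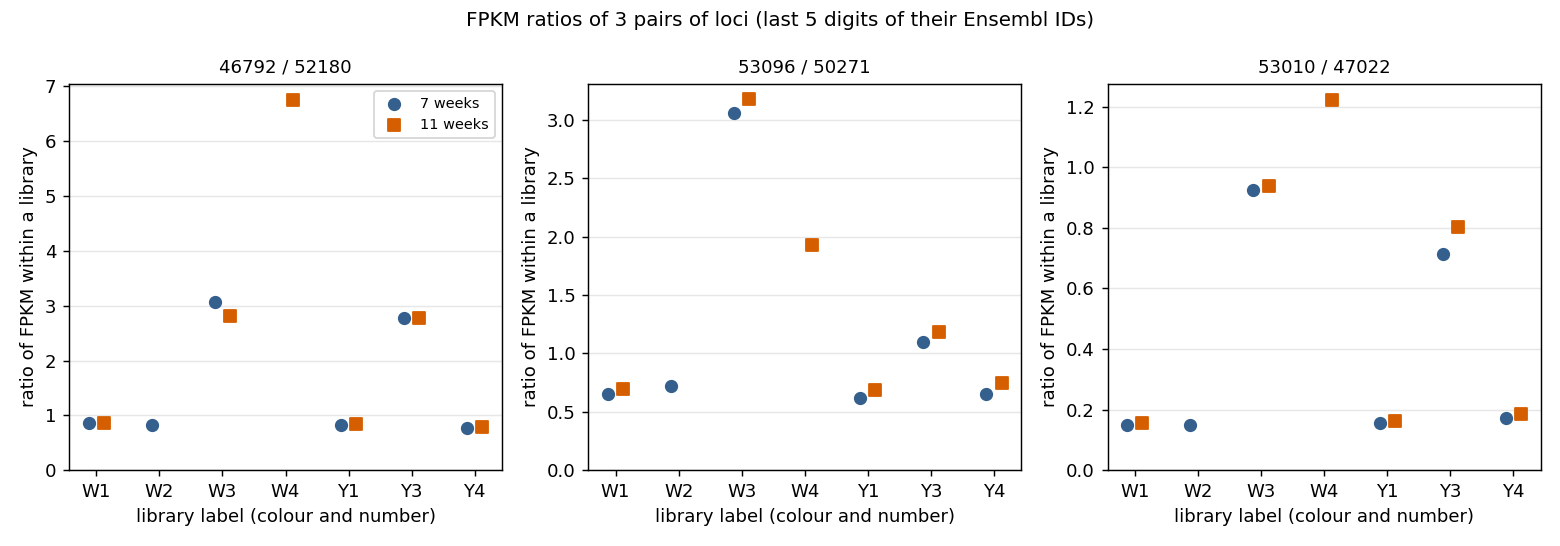
Ratio of FPKM of 2 loci within a library (linear axes from 0) for 3 pairs of central loci, by library label, with circles for 7 weeks and squares for 11 weeks. For W3 and Y3 both ages lie close together and above W1, W2, Y1 and Y4, and W4 is also above these.

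The 8 central loci never listed at 0 were also taken as shares of their sum. In the 5 pairs of libraries with one colour and number at both ages, the median absolute log2 difference in share was 0.06 to 0.14. In 13 pairs of one colour with different numbers it was 0.09 to 1.56, which overlaps the first range, since W1 and W2, and Y1 and Y4, were as alike as libraries of one label. A fit added after this was seen, on the 10 libraries whose number occurs at both ages, tested jointly for differences between numbers of one colour. It took libraries of one colour and number as replicates, with a shared term for age, though whether they share a bird is not settled. Of 32 loci, 2 passed (0.316% of all loci): ENSGALG00000053010 (adjusted p = 0.030 in limma) and ENSGALG00000046792 (adjusted p = 0.047). Both are in the ratios above, so these p-values come from the values that showed the pattern and are no separate test of it. The log2 difference of W3 from W1 was 2.12 and 2.18, and of Y3 from Y1 1.28 and 1.15. With a pseudocount of 1, with median of ratios or with quantile normalization 1 of the 2 passed. Whether these differences lie in the birds, in the alignment to possible near-identical copies or in the library was not tested.

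Beyond the last locus, ENSGALG00000029144 (chr25:2261216-2262855), which ranked 7 in the table by mean FPKM, was never listed at 0. It had 14517, 18042 and 17015 in white and 17908, 19723 and 16118 in yellow follicles at 7 weeks, and 11858, 12502 and 11205 in white and 10168, 10242 and 4229 in yellow ones at 11 weeks. Its ages did not overlap, and its log2 change of -0.85 (SE 0.21, adjusted p = 0.0032 in limma) was under the fold threshold. Of the 37 loci tested within 300000 bases on either side, 4 rose and 2 fell with age, with a median of 0.19, against 3640 higher and 2.96% lower of the 14553 loci tested and a median of 0.44. On chromosome 27, 9 loci carry feather keratin symbols (FK21, FK27 and FKCOSL). They summed to 452 FPKM in 1Y4, 88.1 in 7W1 and 14.2 in 7W3 and to at most 2.53 in the others, and of the 6 tested 0 passed between ages in the average over colours and in yellow follicles, and 1 fell in white ones. The libraries 1Y4, 7W1 and 7W3 also had the highest sums of the second stretch, at 2071, 650 and 599 FPKM. There 1Y3 came close to 7W3, at 589 FPKM, but had 0.64 FPKM over the chromosome 27 loci.

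Against the same counts and median over all loci, of 17 alpha-keratin and cornification genes tested 6 rose and 2 fell with age (median 0.26). The sum of the list was 7331 to 9962 FPKM at 7 weeks and 3382 to 6605 at 11 weeks. CSTA alone held 5314 to 7471 FPKM of it at 7 weeks and 1648 to 4040 at 11 weeks. KRT5, the next highest by mean, had 720 to 926 at 7 weeks and 577 to 949 at 11 weeks. Among 23 epithelial regulators 8 rose and 1 fell (median 0.45, close to that of all loci). The marker sums of endothelium were 9.17 to 15.8 FPKM at 7 weeks and 16.2 to 30.6 at 11 weeks, and those of immune cells 8.20 to 18.0 and 16.0 to 31.2, with 1 of 4 and 2 of 4 markers rising. The 6 epidermal markers summed to 1401 to 1647 at 7 weeks and 1197 to 1600 at 11 weeks. Of these 6, 1 rose, TP63 (log2 change 2.47), and 1 fell, KRT14 (-1.05). Of markers of dermis and pulp 2 of 7 rose (median 0.95), of erythrocytes 2 of 3 tested fell (median -1.41), and of melanocytes 2 of 5 fell (median -0.34). For muscle and proliferation 0 of 3 and 0 of 4 passed. The part of cell makeup in the age changes was not tested.

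The genes outside the interval whose levels ran closest to the sum of the 32 were taken by Pearson's r of log2 FPKM over the 12 libraries, which share their scaling. ENSGALG00000051754 on chromosome 27 came first (r = 0.96, Spearman's rho 0.93, 131 FPKM in 1Y4 to 436 in 7Y3). Next were ERO1A, an oxidase that forms disulphide bonds in the endoplasmic reticulum (r = 0.91, rho 0.78), SFXN4, a mitochondrial sideroflexin (r = 0.91, rho 0.79), and GDPD2, a glycerophosphodiesterase (r = 0.91, rho 0.86). The fifth was ENSGALG00000039585 on chromosome 2 (r = 0.90, rho 0.70). In all 5 the lowest value was in 1Y4.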

How the data were processed

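Per the labels and the study's methods, the authors filtered reads with a Perl script, aligned them with TopHat2 (Bowtie2 2.2.3 index) to GRCg6a with Ensembl annotation and counted with HTSeq 0.6.0; they deposited FPKM for 24353 loci in 12 libraries. The program that computed FPKM is not given in the sources used here. The count test of the study was not repeated, since it needs counts. Log2(FPKM + 0.1) was fitted with limma 3.58.1 in R 4.3.3 (eBayes with trend, Benjamini-Hochberg adjustment over all loci of mean FPKM of at least 0.1). Each colour difference used the 6 libraries of an age, each age change the 6 of a colour, and averages and the interaction all 12, with a mean per group. Fold changes are on the log2(FPKM + 0.1) scale, which understates those of low loci. No source used here settles whether libraries of one number share a bird, and p-values measure the spread between libraries. The fits were tested on simulated data.

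Values were printed for the 6 loci of highest mean, loci past both thresholds, the largest average changes and loci listed at 0 in some libraries and at 10 FPKM or more in others; loci of the first and last stretches and the colour averages of loci with zeros were given in part by ranges. Loci and gene lists were chosen with earlier results of these data known. Of the 32 loci, 1 matched RefSeq by symbol and 0 by Ensembl ID, and no sequence is shown. Alternatives were other pseudocounts (0.01 and 1), filters (none, and 1), scalings and eBayes settings, a replicate block and leaving out each library.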

Additional observations from a re-analysis of the deposited data

How the results depend on the processing

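Colour gave 0 calls in the interval under all alternatives at 11 weeks, in the average and in the interaction. At 7 weeks leaving out single libraries gave 0 to 2 (2 without 7W2). Between ages, leaving out single libraries gave 3 to 12 loci in white, 7 to 18 in yellow and 7 to 15 in the average. In the average, 7 passed with no minimum FPKM, without trend and with the robust option, 8 under quantile normalization, and 4 of the loci never at 0 (2 of these in white); in yellow, quantile normalization left 6. The 4 falls kept their direction under all 23 alternatives, but ENSGALG00000047022 (-0.90) and ENSGALG00000052180 (-0.91) missed the fold threshold under quantile normalization. Log2 ratios of the sums, 11 against 7 weeks, moved to -0.61 in white and -0.97 in yellow under median of ratios, to -0.092 in yellow under quantile normalization, and to -0.64 and -1.32 for loci never at 0. Without single libraries they ran from -0.25 to -0.0027 in white, from -0.68 to -0.34 in yellow, and for yellow against white from -0.22 to 0.07 at 7 weeks and from -0.63 to -0.29 at 11 weeks. The count of loci that differed between library numbers fell from 2 to 1 with a pseudocount of 1, median of ratios and quantile normalization; that fit, the count without loci at 0 and the exclusion of 1Y4 from the sums were chosen after seeing the data.

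The deviations of same-numbered libraries of one colour correlated at 0.10 to 0.27 between ages, all above 0. Between colours the correlation was -0.04 and 0.24 at 7 weeks and 0.05 to 0.20 at 11 weeks. With the replicate number as a block, 4 loci passed for colour at 7 weeks (all lower in yellow), and the other colour counts stayed at 0. For age 6 passed in white and 12 in yellow, against 4754 of 14449 and 2967 of 14534 over all loci. In the age average the block was colour and number together, and 11 passed (3 higher, 8 lower). That fit pairs libraries of one label across ages, though whether they share a bird is not settled.

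Depth is unknown, so a value listed at 0 could not be told from a failed estimate, and no interval for counting error is given.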
